A study of Mus musculus with 6 samples.

Results

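S100 proteins are small calcium-binding proteins of vertebrates, each built on a pair of EF-hand calcium sites, and this account describes the RNA of 10 S100 genes among the 23282 genes of a table from cultured mouse hepatocytes. The 10 genes are S100a1, S100a4, S100a6, S100a8, S100a9, S100a10, S100a11, S100a13, S100a14 and S100a16, found in the table by their symbols. They were chosen by a rule that used measured values: the raw counts of the control and IL-1β samples of these same libraries were known when the list was drawn up. Their levels and differences are therefore given as a description, without p-values, and counts of members past a threshold carry no weight as evidence. The table holds 7 other S100 genes, which are given after the members.

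Primary hepatocytes were prepared from livers of C57BL6/N mice by collagenase perfusion, left to attach for 3 h and then cultured for 24 h. The control group (3 samples) had no treatment, and the IL-1β group (3 samples) received recombinant IL-1β, an inflammatory cytokine, over these 24 h. Although the design text counts 2 samples in a group, it names 3, and every one of them was used. RNA was sequenced by QuantSeq, which reads 75 nt near the 3′ end of each mRNA, so that counts do not grow with the length of a transcript. Nothing in the labels says that the samples of a group came from separate animals, and p-values measure only the spread between these samples, which may be technical.

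Control libraries held 10538667, 11105408 and 9566434 counts, and IL-1β libraries 9538741, 10554243 and 11037083. Levels are counts scaled to library size with TMM (CPM), given as mean ± SD with n = 3 in each group. At these depths a floor of 3 counts in a library corresponds to between 0.269 and 0.321 CPM, a limit that covers counting error only. Most hepatocyte markers were abundant, with albumin (Alb) at 16200 ± 516 CPM in control and 14104 ± 577 CPM in IL-1β samples. Of the 15 listed, 4 were under 10 CPM in every library. They were the urea cycle genes Cps1 (between 1.79 and 3.22 CPM) and Ass1 (between 0.288 and 1.22 CPM) and the tyrosine catabolism genes Tat and Hpd. Tat was at 3.22 ± 0.772 CPM in control and 0.965 ± 0.374 CPM in IL-1β samples, and Hpd at 7.64 ± 0.521 CPM and 7.43 ± 0.278 CPM. Of 14 hepatocyte markers tested, 10 fell after IL-1β with edgeR (8 with DESeq2) and none rose, with a median log2 fold change of -0.29. In bulk samples, fewer cells of a type and less RNA per cell cannot be told apart.

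On binding calcium most S100 proteins expose a surface that docks on a target, such as an annexin, a myosin or a ubiquitin ligase adaptor. Some are also released from stressed or inflamed cells, where they act as alarm signals through the receptors RAGE and TLR4. In liver, S100a8 and S100a9 are best known from infiltrating myeloid cells, S100a6 and S100a4 from biliary and mesenchymal cells, and S100a10 and S100a11 from epithelial cells including hepatocytes. All 10 members lie on chromosome 3 of the mouse.

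Of the 10 members, 7 passed the filter on low counts: S100a1, S100a6, S100a8, S100a10, S100a11, S100a13 and S100a16. S100a8 passed only through the IL-1β group, where it was high. Among all 11657 genes that passed, edgeR's quasi-likelihood test with Benjamini-Hochberg adjustment called 1563 at an adjusted p below 0.05, or 13.4%. Of these 812 (6.97%) were higher and 751 (6.44%) lower after IL-1β. With scaling by total counts in place of TMM, the higher share of the calls was 39.6% in place of 52.0%.

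The count of members past this threshold was 5 (2 higher and 3 lower), to be set beside the 13.4% of all genes. Control and IL-1β values were fully separate in 5 of the 7 members that passed the filter, beside 28.2% of all genes tested. The choice of the members used this contrast, so nothing is read from either count. The number past the threshold was 3 when IL-1β replicate 2 was left out, and 3 when IL-1β replicate 3 was, since S100a13 and S100a16 were no longer past it. S100a13 was also short of it without control replicate 2 or 3, and S100a16 with DESeq2 and without control replicate 1, which left 4 members in each case.

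Together the members took 0.135%, 0.108% and 0.119% of all counts in control libraries and 0.105%, 0.104% and 0.115% in IL-1β libraries. Their summed level was 1185 ± 139 CPM in control and 1099 ± 68.8 CPM in IL-1β samples, and the groups overlapped. S100a11 alone supplied between 59.0% and 67.4% of the members' counts in a library and S100a10 between 17.4% and 22.1%, as shares of reads that are not divided by transcript length. Without S100a11, the sum was 535, 424 and 470 CPM in control samples and 361, 376 and 384 CPM in IL-1β samples. That sum was thus lower in all 3 IL-1β samples than in any control. Control replicate 1 was the highest control sample for 5 of the 6 members that passed the filter and had counts in controls, the exception being S100a1.

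**Figure D1:**
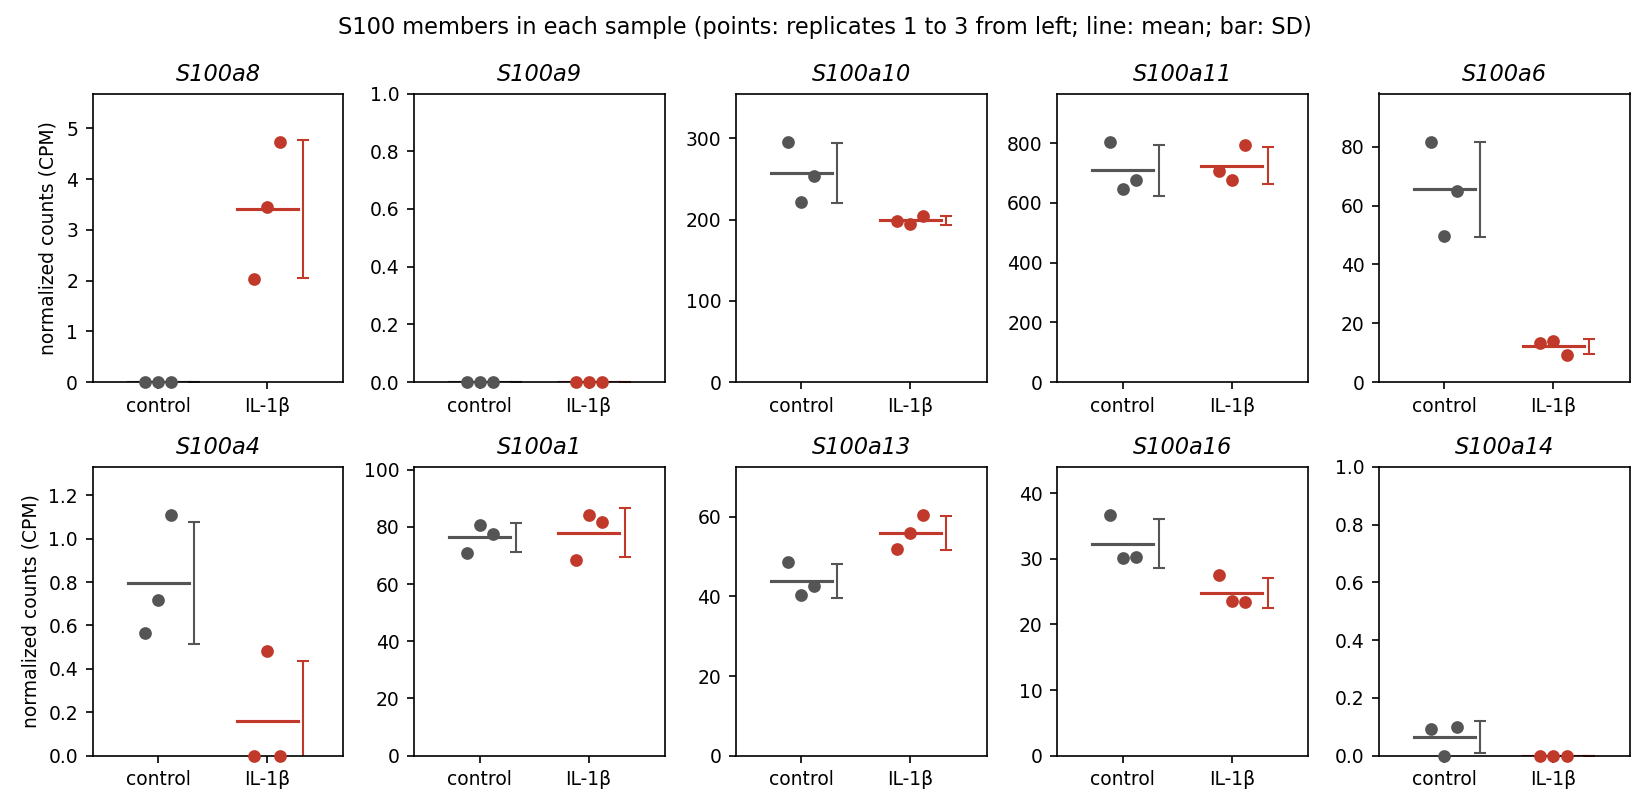
Level of each S100 member in each sample, in CPM on linear axes that start at 0, with control in grey and IL-1β in red. Points are replicates 1 to 3, lines are means and bars are SD (n = 3). S100a6 lay between 49.8 and 81.7 CPM in controls and between 9.3 and 13.9 CPM after IL-1β, and S100a8 had counts only after IL-1β.

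S100a8 and S100a9 encode the subunits of calprotectin, a heterodimer that binds zinc and manganese and is released by neutrophils and monocytes. S100a8 (Entrez 20201, chromosome 3 from 90669071 to 90670034, plus strand) had 0 counts in all 3 control libraries and 19, 36 and 51 counts in the IL-1β libraries. Its level there was 2.03, 3.46 and 4.74 CPM, a mean of 3.41 ± 1.36 CPM. Every IL-1β sample was above the floor and every control sample at 0. Against a floor of 3 counts in each control library, the mean of S100a8 was at least 12.0-fold higher after IL-1β. This bounds the control side only and leaves out the spread of the IL-1β samples, from 2.03 to 4.74 CPM.

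S100a9, on the minus strand from 90692630 to 90695721, had 0 counts in all 6 libraries. The S100a8 counts were thus seen without any S100a9 count at this depth, and no ratio of the pair can be given. A count of 0 allows up to 3 counts in each library.

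Because S100a8 is known from myeloid cells, their markers are given beside it. Of 14 neutrophil markers in the table, none passed the filter on low counts, and Mpo, Elane, Ctsg, Ngp, Ltf, Retnlg, Stfa2l1 and Cd177 were at 0 in every library. The 14 together summed to 1.32, 1.43 and 0.504 CPM in control samples and 1.39, 2.11 and 1.30 CPM in IL-1β samples, with overlapping groups. Over all 6 samples the most abundant was Mmp9, at 0.646 ± 0.614 CPM in controls and 0.292 ± 0.416 CPM after IL-1β. Without Mmp9 the other 13 summed to 0.0939, 0.716 and 0.504 CPM in control samples and 1.28, 1.34 and 1.30 CPM in IL-1β samples, so that this sum was higher in every IL-1β sample. Prtn3, singled out after its values were seen, had 1, 3 and 1 counts in control libraries and 6, 9 and 5 in IL-1β libraries. Camp stayed under the floor, with 0 in each control library and 1, 2 and 2 counts in IL-1β libraries.

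Of 13 monocyte and macrophage markers, 8 were tested and 1 rose, the lipopolysaccharide co-receptor Cd14, which was also the most abundant and which hepatocytes themselves can express. The list summed to 399, 487 and 524 CPM in control samples and 930, 944 and 995 CPM in IL-1β samples. Without Cd14 it summed to 220, 250 and 249 CPM in control samples and 230, 227 and 256 CPM in IL-1β samples, with overlapping groups. Most of that sum was Cd68, at 192 ± 17.4 CPM in control and 184 ± 12.3 CPM in IL-1β samples, so it says little of the other markers. Ccr2 was at 0 in every library, and Lyz2 lay between 0.672 and 1.71 CPM. Itgam, named after its values were seen and below the filter, had 0, 1 and 0 counts in control libraries and 6, 9 and 15 in IL-1β libraries, a separation like that of S100a8. Cd74 was also higher in every IL-1β sample (edgeR, adjusted p = 0.0658). Of 9 Kupffer cell markers, 5 were tested and 0 passed with edgeR, with 2 at an unadjusted p below 0.05, and 0 passed with DESeq2. Their sum was 33.3 ± 1.15 CPM in control and 34.3 ± 3.44 CPM in IL-1β samples, with Cd5l as the most abundant. Within the list Marco was higher and Cd5l lower in every IL-1β sample than in any control. Without Cd5l the sum was 13.3, 13.96 and 12.7 CPM in control samples and 15.8, 15.9 and 19.5 CPM in IL-1β samples, higher in all 3. T and NK cell markers, 9 in all, had at most 3 counts in any library, Cd4 being the most abundant and Cd3e, Cd3g, Cd8a, Klrb1c, Gzma and Ncr1 being at 0. Cybb, Cyba and Rac2 of the phagocyte NADPH oxidase and the actin bundler Lcp1, given below, are in none of these lists and were called higher. Rac1 of the same oxidase was lower in every IL-1β sample. The part of any of these cell types in the S100a8 counts was not tested.

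Calprotectin delivers arachidonic acid to the phagocyte NADPH oxidase, the complex that makes superoxide. Of 4 tested subunit genes of the 6 used here, 3 rose after IL-1β and none fell with edgeR, with a median log2 fold change of 1.98, against -0.0018 over all genes tested. Cybb, the catalytic subunit, had 23.8, 19.7 and 22.5 CPM in control samples and 115, 128 and 115 CPM in IL-1β samples (log2 fold change 2.44 with standard error 0.098; edgeR, adjusted p = 1.54e-15). Its membrane partner Cyba rose from 3.15 ± 1.03 CPM to 18.7 ± 3.33 CPM, a log2 fold change of 2.57. The cytosolic GTPase Rac2 was lower in counts and rose from 1.35 ± 0.538 CPM to 3.88 ± 1.21 CPM. These 3 genes were named because they were called, and in each of them every IL-1β sample lay above every control, which adds no support. Rac1, the most abundant of the subunit genes, was lower in every IL-1β sample, at 246 ± 10.1 CPM in control and 215 ± 7.93 CPM after IL-1β. Its log2 fold change of -0.19 missed the threshold with edgeR (adjusted p = 0.0563) and passed it with DESeq2. The call of Rac2 was lost without control replicate 1 or IL-1β replicate 2, where its log2 fold change was 1.23 to 1.78 over the samples left out in turn.

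Secreted S100 proteins signal through receptors of 9 genes that were listed, of which 7 were tested, 1 rose and none fell (median log2 fold change 0.038). Cd14, the co-receptor that hands ligands to TLR4, had 179, 237 and 275 CPM in control samples and 700, 717 and 739 CPM in IL-1β samples. Its log2 fold change was 1.64 (edgeR, standard error 0.097, adjusted p = 1.6e-12), with all 3 IL-1β samples above the controls. Tlr4 itself was low, at 0.823 ± 0.392 CPM in control and 2.08 ± 1.39 CPM in IL-1β samples, and did not pass (log2 fold change 1.33 with standard error 0.57; edgeR, adjusted p = 0.141). That value was 0.70 when IL-1β replicate 3 was omitted and 1.73 when replicate 2 of that group was, and did not pass in either case. Ager, which encodes RAGE, had 0.633 ± 0.0867 CPM in control and 1.07 ± 0.349 CPM in IL-1β samples, without overlap, but was below the filter. Bsg, an S100a9 receptor also named basigin or CD147, had 76.3 ± 1.08 CPM and 74.9 ± 2.1 CPM, a log2 fold change of -0.03 (standard error 0.082) that did not pass.

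Of the adaptors that carry signals from RAGE and TLR4, 8 of the 9 listed genes in the table were tested and 2 rose, with a median log2 fold change of 0.098. Irak3, a kinase-like inhibitor of the pathway, rose from 13.2 ± 4.75 CPM to 61.9 ± 3.12 CPM (log2 fold change 2.24 with standard error 0.16; edgeR, adjusted p = 8.74e-11). Irak2 rose less, from 89.5 ± 6.24 CPM to 108 ± 6.11 CPM, a log2 fold change of 0.28. That call was lost with scaling by total counts and without control replicate 1 or 2 or IL-1β replicate 1 or 3, with a log2 fold change between 0.22 and 0.33 over all alternatives. Diaph1, a RAGE adaptor, was not analysed here.

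S100a10 (Entrez 20194, chromosome 3 from 93555117 to 93564645, plus strand) is the S100 protein that has lost calcium binding and stays bound to annexin A2, a pair that holds plasminogen at the cell surface. Its level was 296, 222 and 253 CPM in control samples and 198, 194 and 205 CPM in IL-1β samples. All 3 IL-1β samples were below the lowest control, and they lay closer together, with an SD of 5.25 CPM against 37.1 CPM. The log2 fold change was -0.37 (standard error 0.082), which is 22.5% lower, and it lay between -0.46 and -0.25 with each sample left out in turn.

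Anxa2, the partner of S100a10, fell from 464 ± 6.52 CPM to 407 ± 11.2 CPM (log2 fold change -0.19 with standard error 0.061; edgeR, adjusted p = 0.0398), with all 3 IL-1β samples below the controls. The call was lost without control replicate 2 or 3 and without any 1 of the IL-1β replicates, at log2 fold changes between -0.19 and -0.16. The count of S100a10 for each Anxa2 count was 0.64, 0.484 and 0.537 in control samples and 0.478, 0.493 and 0.496 in IL-1β samples. The groups overlapped, with a mean ratio of 0.554 ± 0.0793 in control and 0.489 ± 0.0097 after IL-1β, and the difference of -0.065 is a description. It lay between -0.0997 and -0.0217 with each sample left out in turn, closest to 0 without control replicate 1.

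Genes of plasminogen activation at this surface complex moved in both directions: of 6 used here, 4 were tested, 1 rose and 2 fell, with a median log2 fold change of -0.15. Serpinf2, which encodes the plasmin inhibitor α2-antiplasmin, had 90.8, 76.0 and 84.0 CPM in control samples and 14.1, 18 and 11.6 CPM in IL-1β samples (log2 fold change -2.52 with standard error 0.13; edgeR, adjusted p = 7.39e-14). All 3 IL-1β samples lay far below the controls. Plaur, the urokinase receptor, rose from 11.6 ± 1.86 CPM to 17.6 ± 3.75 CPM, a log2 fold change of 0.60. Plg, plasminogen itself, fell from 248 ± 16.1 CPM to 210 ± 19.9 CPM, a log2 fold change of -0.24. The call of Plaur was lost without control replicate 2 or IL-1β replicate 2 or 3 (0.43 to 0.74 over the samples left out in turn). That of Plg was lost without control replicate 1 or 3 or IL-1β replicate 1 or 2 (-0.31 to -0.18).

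S100a11 (Entrez 20195, chromosome 3 from 93520496 to 93526288, plus strand) binds annexin A1 and takes part in membrane repair and in growth control of epithelial cells. Its level was 805, 646 and 676 CPM in control samples and 706, 676 and 793 CPM in IL-1β samples. The groups overlapped, with a log2 fold change of 0.03 (standard error 0.076) that turned to -0.02 when libraries were scaled by total counts. It was 0.13 without control replicate 1 and negative without control replicate 2 or 3 or IL-1β replicate 3, down to -0.03. In the last 500 bases of its annotated transcripts, 38.7% of 75-base windows also occur in 2 processed pseudogenes that were not analysed here, so reads could be split between them.

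Anxa1, the annexin best known as a partner of S100a11, had 0.219 ± 0.142 CPM in control and 0.062 ± 0.107 CPM in IL-1β samples, under the floor in the mean of both groups. Of 12 annexin genes, 8 were tested, 2 fell and none rose, with a median log2 fold change of -0.16. Beside Anxa2 this was Anxa5, a protein that binds phosphatidylserine, which fell from 446 ± 15.4 CPM to 356 ± 12.4 CPM (log2 fold change -0.32 with standard error 0.063; edgeR, adjusted p = 5.87e-04). Anxa8 and Anxa10 were at 0 in every library.

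S100a6 (Entrez 20200, chromosome 3 from 90612894 to 90614414, plus strand) encodes calcyclin, which binds the ubiquitin ligase adaptor CacyBP and is high in proliferating and biliary cells. Its level was 81.7, 49.8 and 64.9 CPM in control samples and 13.3, 13.9 and 9.3 CPM in IL-1β samples. The lowest control lay far above the highest IL-1β sample. This was the largest decrease among the members with a fitted value, with a log2 fold change of -2.43 (standard error 0.16), which is 5.39-fold lower. It lay between -2.59 and -2.24 with each sample left out in turn.

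S100a4 (Entrez 20198, chromosome 3 from 90603770 to 90606045, plus strand), a binder of nonmuscle myosin IIA known from fibroblasts and motile cells, had few reads. It had 6, 8 and 11 counts in control libraries and 0, 5 and 0 counts in IL-1β libraries, or 0.564, 0.716 and 1.11 CPM against 0, 0.48 and 0 CPM. The groups did not overlap on the CPM scale, but the gene failed the filter on low counts and no fold change was fitted. In its last 500 bases, 44.8% of 75-base windows also occur in Gm42674, an annotated gene that overlaps it on the same strand and was not analysed here.

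Since S100a6 and S100a4 are known from biliary and mesenchymal cells, markers of those cells are given beside them. Of 10 cholangiocyte markers, 4 were tested, 1 rose and 1 fell. The list summed to 335, 322 and 335 CPM in control samples and 243, 246 and 244 CPM in IL-1β samples. Spp1, given below, fell by more CPM than this sum did. Sox9 was the most abundant over all 6 samples at 134 ± 5.31 CPM and 155 ± 5.86 CPM, and was higher in every IL-1β sample. Krt19, below the filter and named after its values were seen, had 6, 3 and 2 counts in control libraries and 0 in each IL-1β library, too few to compare against a floor of 3 counts. The genes called were singled out after their values were seen: Spp1 (osteopontin) fell from 190 ± 1.95 CPM to 82.7 ± 5.17 CPM, and Prom1 rose from 0.251 ± 0.139 CPM to 1.49 ± 0.344 CPM. The Prom1 call was lost without control replicate 1 or IL-1β replicate 3, with log2 fold changes of 2.14 and 2.33. Sox9 missed the threshold with edgeR (adjusted p = 0.0519) but passed in 5 alternatives, with DESeq2, the filter of 10 counts, limma, the replicate block and without control replicate 1 (0.18 to 0.25 over the samples left out in turn). No marker of the list was at 0 in every library.

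Of 11 stellate cell and fibroblast markers, 3 were tested and 0 passed with edgeR, with 0 at an unadjusted p below 0.05 and 0 with DESeq2. Their sum was 30.9 ± 2.52 CPM in control and 31.1 ± 2.05 CPM in IL-1β samples, and Dcn was the most abundant at 18.4 ± 2.13 CPM and 20.3 ± 1.57 CPM. Tagln was lower in every IL-1β sample than in any control, at 7.66 ± 0.894 CPM in control and 6.07 ± 0.941 CPM after IL-1β, and Col3a1 was higher in every one, at 0.885 ± 0.16 CPM and 1.27 ± 0.0877 CPM. Mesothelial markers had at most 3 counts in any library, with Gpm6a the most abundant and Msln, Upk3b, Upk1b and Wt1 at 0. Of 9 endothelial markers, 8 were tested, 1 rose and 2 fell, with a median log2 fold change of -0.66, and their sum was 56.7 ± 2.13 CPM against 51.5 ± 2.83 CPM. Without Lyve1 the sum was 39.2, 33.5 and 41.0 CPM in control samples and 26.2, 26.8 and 24.2 CPM in IL-1β samples, lower in all 3. Beside the genes called, Stab2 and Oit3 were lower and Cdh5 higher in every IL-1β sample than in any control. Lyve1, the most abundant, rose by a log2 fold change of 0.45, while Clec4g and Kdr, singled out after their values were seen, fell by 2.87 and 1.49 on the log2 scale. The Lyve1 call was lost with scaling by total counts and without control replicate 1 or 3 or IL-1β replicate 2 or 3 (0.36 to 0.59). The part of any of these cells in the S100a6 and S100a4 values was not tested.

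Of 18 intracellular partners of S100 proteins, all were tested, 1 rose and 2 fell, with a median log2 fold change of -0.088. Cacybp, the S100a6 partner, had 96.0 ± 7 CPM in control and 108 ± 4.19 CPM in IL-1β samples and did not pass (log2 fold change 0.17 with standard error 0.079; edgeR, adjusted p = 0.193). Myh9, the heavy chain of nonmuscle myosin IIA and the partner of S100a4, had 646, 674 and 675 CPM in control samples and 516, 521 and 499 CPM in IL-1β samples (log2 fold change -0.38 with standard error 0.06; edgeR, adjusted p = 4.83e-05). All 3 IL-1β samples lay below the controls. Ahnak, a giant scaffold that binds the S100a10 and annexin A2 complex, fell from 137 ± 4.63 CPM to 114 ± 7.33 CPM, a log2 fold change of -0.26. Its call was lost without control replicate 3 or IL-1β replicate 2 or 3 (-0.28 to -0.20 over the samples left out in turn).

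Cytoskeletal genes are listed with S100a6 and S100a4 because cultured hepatocytes raise many of them as they spread. Of 26 such genes, all were tested, 5 rose and 6 fell, with a median log2 fold change of 0.088. Those that fell with the smallest adjusted p were intermediate filament genes: Krt18 from 1822 ± 63.7 CPM to 895 ± 52.4 CPM, Krt8 from 1467 ± 201 CPM to 672 ± 50.4 CPM, and Vim from 190 ± 17.7 CPM to 84.7 ± 6.8 CPM. Their log2 fold changes were -1.02, -1.13 and -1.16 (edgeR, adjusted p of 1.93e-12, 4.53e-11 and 7.24e-11), and in each the IL-1β samples lay below every control. Other genes of the list rose, among them the tubulin Tubb2b with a log2 fold change of 0.75 and the galectin Lgals3 with 0.53. The difference of S100a6 on the log2 scale was larger than that of any gene of this list, although the difference between genes was not tested. S100a6 was chosen with its values known, so nothing is read from this order.

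S100a1 (Entrez 20193, chromosome 3 from 90511034 to 90514330, minus strand) is best known from heart and skeletal muscle, where it binds the calcium pump SERCA2 and the ryanodine receptor. Its level was 70.8, 80.8 and 77.5 CPM in control samples and 68.3, 84.2 and 81.7 CPM in IL-1β samples. The groups overlapped, with a log2 fold change of 0.03 (standard error 0.092) that turned to -0.02 with scaling by total counts. It was 0.13 without IL-1β replicate 1 and -0.02 without control replicate 1 or IL-1β replicate 2. Atp2a2, which encodes SERCA2, rose from 219 ± 15.6 CPM to 260 ± 14.9 CPM, or 0.25 on the log2 scale (edgeR, standard error 0.071, adjusted p = 0.0179). That call was lost with scaling by total counts and without control replicate 1 or 3 or IL-1β replicate 1 or 2 (0.20 to 0.31).

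S100a13 (Entrez 20196, chromosome 3 from 90514435 to 90524581, plus strand) helps to export FGF1 and IL-1α, which lack a signal peptide. It starts 104 bases from S100a1 and runs in the opposite direction. Its level was 48.8, 40.5 and 42.6 CPM in control samples and 51.8, 55.8 and 60.4 CPM in IL-1β samples. The IL-1β samples all lay above the controls, with a log2 fold change of 0.35 (standard error 0.101), or 27.6% higher, and 0.30 to 0.43 when single samples were omitted. The divergent pair thus had different values, S100a13 being higher in every IL-1β sample and S100a1 overlapping between the groups. Whether the pair differed in its change was not tested.

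S100a16 (Entrez 67860, chromosome 3 from 90541223 to 90543151, plus strand) is a broadly expressed member with weak calcium binding. Its level was 36.6, 30.1 and 30.2 CPM in control samples and 27.5, 23.5 and 23.4 CPM in IL-1β samples. All 3 IL-1β samples lay below the lowest control, with a log2 fold change of -0.38 (standard error 0.12), which is 23.3% lower, and -0.45 to -0.28 when single samples were omitted. S100a14, an epithelial member with a start at 90526849, had 1, 0 and 1 counts in control libraries and 0 in each IL-1β library, at or under the floor throughout, and no fold is given.

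The family's EF-hand fold is shared with many calcium sensors. Of 36 other EF-hand genes, 33 were tested, 4 rose and 5 fell, with a median log2 fold change of -0.076. The actin bundler Lcp1 (L-plastin) had 157, 177 and 200 CPM in control samples and 408, 431 and 400 CPM in IL-1β samples (log2 fold change 1.22 with standard error 0.077; edgeR, adjusted p = 6.11e-12). Nucb2 rose with a log2 fold change of 0.60 and Chp1 with 0.31, while the actinin Actn4 fell by 0.32 and the calpain Capn2 by 0.27 on the log2 scale. These 5 genes were named for the smallest adjusted p of the list, so the full separation of their control and IL-1β values adds no support. Of all genes tested, 28.2% were fully separate. The Capn2 call was lost without IL-1β replicate 2, with a range of -0.28 to -0.24 over the samples left out in turn.

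**Figure D2:**
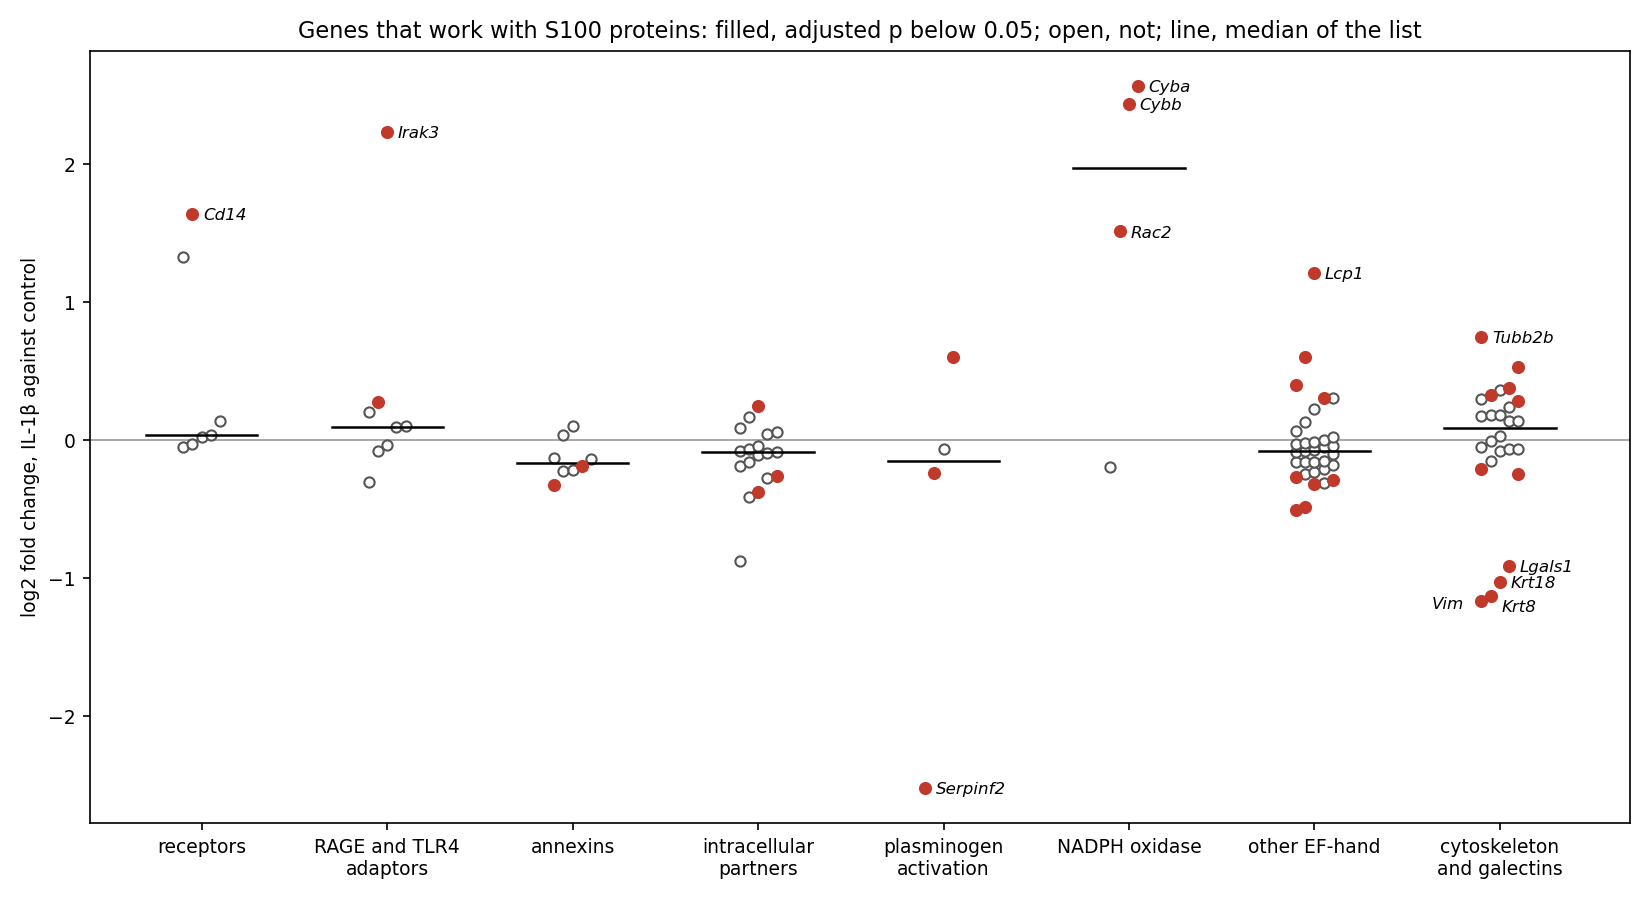
Log2 fold change of IL-1β against control for partner, receptor, other EF-hand and cytoskeleton genes, by list. Genes at an adjusted p below 0.05 are filled, others open, and a line marks each list's median. Cyba at 2.57 and Serpinf2 at -2.52 are the extremes, and 3 of 4 tested NADPH oxidase genes are above 1.5.

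Over all 8 lists 108 genes were tested, of which 17 rose and 17 fell, that is 31.5% called beside 13.4% of all genes tested. Their median log2 fold change was -0.047, against -0.0018 over all genes. Between 22 and 31 of the genes were called when single samples were omitted, 22 being the count without IL-1β replicate 2. The lists were written down with earlier results of these data known, so the share is a description.

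Of the 7 other S100 genes of the table, S100a2, S100a5 and S100a7a had no count in any library. S100b had 1 count and S100z had 5 counts, all in control libraries. S100a3, next to S100a4, had 23, 2 and 18 counts in control libraries and 1, 3 and 8 in IL-1β libraries, with overlapping groups, and did not pass the filter. S100g, which encodes calbindin-D9k and lies on chromosome X, was the only one tested. It had 1.41, 0.985 and 0.806 CPM in control samples and 2.46, 0.865 and 2.05 CPM in IL-1β samples (log2 fold change 0.73 with standard error 0.51; edgeR, adjusted p = 0.432), and the groups overlapped.

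The members fall into a pair of groups on chromosome 3 (GRCm38). The first runs over 184.7 kb from S100a1 to S100a9 and holds 8 of the 10 members. The second lies 2.83 Mb further on and holds S100a11 and S100a10, which are 28.8 kb apart. Between them lie genes of the epidermal differentiation complex for the cornified envelope of skin. From 90261034 to 93814645, which is 250 kb beyond the S100 genes on either side, the table has 67 genes that are not S100 genes, of which 43 had no count in any library and 8 were tested.

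Of those 8 genes 1 was called, Sprr1a, a small proline-rich protein of the cornified envelope that is also known from injured liver and nerve. It had 1103, 998 and 1029 CPM in control samples and 237, 242 and 240 CPM in IL-1β samples (log2 fold change -2.12 with standard error 0.064; edgeR, adjusted p = 5.01e-18). All 3 IL-1β samples lay below the controls. The other genes of the region did not pass, with Snapin at a log2 fold change of 0.34, Chtop at 0.22, Ilf2 at 0.21 and Crct1 at 0.24. Snapin, Chtop and Ilf2, near S100a1 and S100a13, were each higher in every IL-1β sample than in any control. Of all genes tested, 28.2% had groups without overlap. The median of the 8 was 0.16. The members S100a6 and S100a8 were chosen with these values known, and differed in sign. S100a6 was lower, and the IL-1β mean of S100a8 was at least 12.0-fold above the control level. S100a7a between them had no counts.

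**Figure D3:**
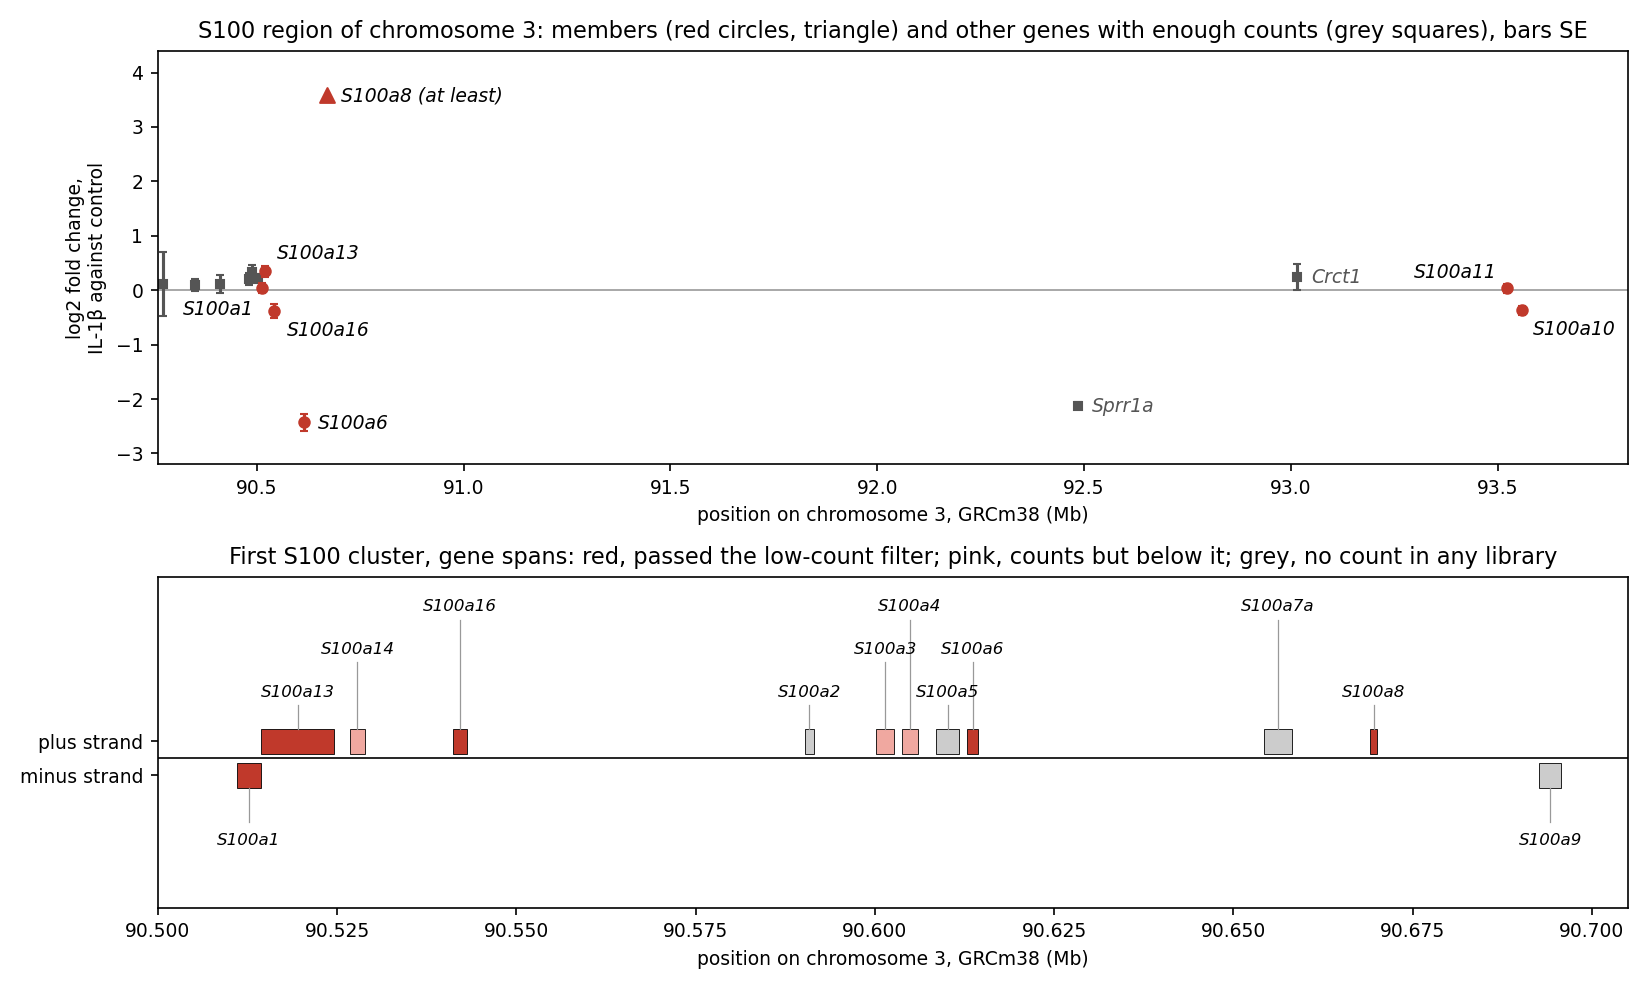
Top, log2 fold change with SE by position on chromosome 3 (GRCm38, Mb) for S100 members (red) and other tested genes (grey). S100a8 is drawn as its IL-1β mean against the floor of 3 counts, a bound on the control side only. Bottom, gene spans and strands in the first S100 cluster, in red where the gene passed the filter, pink where it had counts below it and grey where it had none. S100a6 at -2.43 and Sprr1a at -2.12 lie lowest, and most spans between S100a16 and S100a8 are pink or grey.

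By profile over the 6 libraries, measured as the root mean square distance between log2(CPM + 1) values after each gene's mean was subtracted, the genes nearest to S100a11 among 7979 with at least 10 CPM were Mrpl20 (0.0268), Ergic3 (0.0282) and Ly6e (0.0299). Those nearest to S100a10 were Nop9 (0.0209), Mpc2 (0.0458) and Ugt2a3 (0.0489). The median distance over all genes was 0.183 from S100a11 and 0.251 from S100a10. The levels of these neighbours and the members share the same libraries. They were picked for their pattern over these libraries, so no test of them is given.

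Promoter sequence was compared for the 8 members that have an entry in the RefSeq promoter table (GRCm38.p6), with 9 windows of 300 bases from 250 before to 50 after the annotated start. S100a10 and S100a14 are named only. Motifs searched on both strands were TATAAA (the core of a promoter box, in 13.6% of all 32851 promoter windows), TGANTCA (AP-1, 7.81%), TTGCNNAA (C/EBP, 10.8%), TTCNNNGAA (STAT, 8.3%) and the NF-κB consensus (8.46%). TATAAA occurred in 3 members, S100a4, S100a8 and S100a9, in S100a8 at positions -30 to -25 from the start and in S100a9 at positions 1 to 6. TGANTCA occurred in S100a16 once and in S100a11 at 2 places, TTGCNNAA in S100a9 once, and the STAT and NF-κB letters in none of the windows. No match overlapped another. A match is a description of letters and not a bound site.

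The upstream bases of the members with the largest differences, S100a6 and S100a8, are shown with those of S100a9, the partner of S100a8 that had no counts, and with the stretch between the starts of S100a1 and S100a13. The S100a6 stretch is chr3:90612644-90612893 on the plus strand, that of S100a8 is chr3:90668821-90669070 on the plus strand and that of S100a9 is chr3:90695722-90695971, read on the minus strand. The stretch between the divergent genes is chr3:90514331-90514434, read on the plus strand. Capitals mark motif matches, TATAAA in S100a8 and TTGCTTAA in S100a9, and the S100a6 stretch and the divergent stretch hold none of the letters searched.
S100a6: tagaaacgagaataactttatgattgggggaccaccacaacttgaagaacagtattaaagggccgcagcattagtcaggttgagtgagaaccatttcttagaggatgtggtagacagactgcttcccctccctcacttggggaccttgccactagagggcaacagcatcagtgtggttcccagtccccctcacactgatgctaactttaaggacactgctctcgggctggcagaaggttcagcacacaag
S100a8: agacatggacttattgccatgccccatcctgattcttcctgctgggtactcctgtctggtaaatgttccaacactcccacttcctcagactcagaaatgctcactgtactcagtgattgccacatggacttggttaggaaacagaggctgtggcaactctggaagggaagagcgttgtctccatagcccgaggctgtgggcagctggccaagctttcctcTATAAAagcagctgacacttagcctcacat
S100a9: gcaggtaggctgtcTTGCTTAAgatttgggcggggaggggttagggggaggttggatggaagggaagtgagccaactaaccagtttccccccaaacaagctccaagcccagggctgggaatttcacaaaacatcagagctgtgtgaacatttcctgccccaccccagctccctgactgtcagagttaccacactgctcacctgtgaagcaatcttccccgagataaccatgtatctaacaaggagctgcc
S100a1 to S100a13: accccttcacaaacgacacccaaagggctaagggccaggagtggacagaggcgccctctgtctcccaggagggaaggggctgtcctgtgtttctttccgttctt
GC content was 50.0% in the S100a6 stretch, 50.8% in S100a8, 53.6% in S100a9 and 58.7% between S100a1 and S100a13, against a median of 52.4% over all promoters before the start.

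Reads of the members could be told apart from each other: of the 75-base windows in the last 500 bases of their annotated protein-coding transcripts, 0% of any member's windows occurred in a transcript of another S100 gene. With genes of any name, windows were shared for S100a11 and S100a4 only, as given above.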

How the data were processed

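For each gene the authors deposited a raw read count in each of the 6 samples, beside log2 normalized values, group averages, a fold change and a p-value of their own, which were not used here. Per the labels the reads were aligned with Bowtie2 to mm10 (GRCm38) and analysed with edgeR. The counting tool, its strand setting and its handling of reads that match several genes are not given in the sources used here. Groups were taken from the sample titles. The fit used edgeR 4.0.16 under R 4.3.3 (filterByExpr, TMM, quasi-likelihood test, Benjamini-Hochberg adjustment over all 11657 genes kept), and standard errors are |log2 fold change| / √F. The fit was tested on simulated data. Summaries used Python 3.11.15. Gene starts and ends given in the text came with the authors' counts. Transcripts came from GENCODE for GRCm38 and promoters from RefSeq.

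The members and the gene lists were chosen with earlier results of these data known. The genes named are the 10 members, other S100 genes with a count, at most 5 called genes of each list with the smallest adjusted p, Anxa1, Anxa2, Ahnak, Cacybp, Ager, Tlr4, Bsg and Plaur, the 5 tested genes of the region with the smallest adjusted p, the most abundant gene and the genes at 0 of marker lists, and the 3 nearest profiles of S100a11 and S100a10. Marker genes called in short lists and markers of other cell types than hepatocytes whose groups did not overlap were added after their values were seen. So were Rac1 and Cd68. Also named are Cps1, Ass1, Tat, Hpd, Lyz2, Anxa8, Anxa10 and the S100 genes without a count. Alternatives were total-count scaling, upper-quartile scaling, DESeq2 1.42.0, a filter of 10 counts in each sample or none at all, limma 3.58.1 on log2(CPM + 1), the replicate number as a block, omission of Rn45s (between 11.7% and 14.2% of counts) and each sample left out. Protein sequences were not analysed here, and some listed genes are not reported here.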

Additional observations from a re-analysis of the deposited data

How the results depend on the processing

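The total of genes called was between 1131 and 1728 over all alternatives, against 1563, and 1 gene of the S100 region was called in each of them. The count of members past the threshold was between 3 and 5 with each sample left out in turn. S100a8 could not be fitted where at least 10 counts were asked of every sample. Its fitted log2 fold change, which depends on how counts of 0 are treated and is no bound, was 8.16 with edgeR, 7.62 with DESeq2 and 2.09 with limma on log2(CPM + 1). Of the partner, receptor, other EF-hand and cytoskeleton genes together, 34 were called, between 22 and 31 with each sample left out in turn and 22 without IL-1β replicate 2. Over 47 of the other named genes, 654 values were computed. Of these, 593 kept their direction and their side of the threshold, 44 lost the call, 9 gained it and 8 changed sign. Other named genes with a fitted value, such as Rac1, were not part of this tally. The sign changed for Mrpl20, at -0.0032 with upper-quartile scaling, -0.028 with total-count scaling and between -0.045 and 0.138 with each sample left out in turn, and for Ly6e between -0.057 and 0.089 with each sample left out. The cause was not tested.

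For replicates 1, 2 and 3, the correlation of a control sample with the IL-1β sample of its number, after group means were removed, was 0.075, 0.0275 and -0.005. Control replicate 3 correlated best with IL-1β replicate 2 (0.0995), and no pairing by number was used. With the replicate number as a block 1671 genes were called, 1546 of them shared with the fit without it, and 5 members were past the threshold. S100a6 then had a log2 fold change of -2.41 and S100a10 of -0.36. At these depths a gene under about 0.3 CPM, such as S100a14 or Anxa1, cannot be compared.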
